A study of Arabidopsis thaliana with 12 samples.

Results

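The 10 genes described here encode the RNA polymerase IV (Pol IV) machinery of *Arabidopsis thaliana*, which starts the production of small interfering RNAs for RNA-directed DNA methylation, with the largest subunit of Pol V added. They were chosen by gene identifier from a known pathway, with earlier results of these data known: *NRPD1*, *NRPE1*, *NRPD2*, *SHH1*, *CLSY1*, *CLSY2*, *CLSY3*, *CLSY4*, *RDR2* and *DCL3*. All 10 were listed in the files, among 24775 genes listed over the 9 RNA-seq libraries used. By their labels, the libraries came from *met1-3* young shoots, *ddcc* mature leaves and wild-type Col-0 mature leaves, with 3 libraries in each group. The shoots were of 2-week-old seedlings and the leaves of 5-week-old plants. The paper's methods instead describe aerial parts at both ages, without the inflorescence at 5 weeks. Leaves and shoots are therefore used here as the names on the labels. *met1-3* is mutated in *MET1*, the maintenance methyltransferase for CG sites. *ddcc* is the quadruple mutant *drm1 drm2 cmt2 cmt3*, mutated in the methyltransferases for CHG and CHH sites (H is A, C or T). All lines were of the Columbia ecotype and were grown in long days. A further 3 files labelled *met1-3* mature leaves were set aside, because the values of all 22607 genes they shared with the same-numbered Col-0 leaf file were identical to it.

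In RNA-directed DNA methylation, Pol IV transcribes methylated loci into short precursors, RDR2 copies them into double strands and DCL3 cuts these into small interfering RNAs. The small RNAs are loaded into argonautes, which pair with transcripts of Pol V and guide the methyltransferase DRM2 to the locus. Pol IV is brought to its loci by CLASSY (CLSY) remodelers, with the homeodomain protein SHH1, which binds methylated histone H3 lysine 9, acting together with CLSY1 and CLSY2. The pathway thus both reads and writes non-CG methylation. *ddcc* lacks the methyltransferases at its end, and none of the 10 genes is among those mutated. The comparison of *ddcc* with Col-0 leaves asks whether transcript levels of these genes differ when non-CG methylation is lost.

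The 9 libraries held 10105057 to 13989374 reads, of which 3938275 to 5310477 lay on nuclear genes. Plastid genes took 57.7% ± 0.919 of reads in *met1-3* shoots, 65.0% ± 0.744 in *ddcc* leaves and 58.8% ± 0.913 in Col-0 leaves (SD, n = 3 each). The labels were checked on 4 loci that respond to loss of methylation. *FWA* had 1638 to 2921 reads in *met1-3* shoots and at most 6 in any leaf library. *SDC* had 3344, 4740 and 3274 reads in *ddcc* and 3, 2 and 2 in Col-0, and also 666 to 757 in *met1-3* shoots. *ROS1* fell by 3.58 on the log2 scale in *ddcc* (limma, adjusted p = 0.000417). *IBM1* had a log2 fold change of -0.37 and did not pass (limma, adjusted p = 0.0568). Transcripts of the mutated genes were still counted: *MET1* had 292, 260 and 447 reads in *met1-3* shoots, against 40, 62 and 70 in Col-0 leaves. *DRM2* fell by 1.56 on the log2 scale in *ddcc* (limma, Benjamini-Hochberg adjusted p = 0.017, or 0.0721 without Col-0 replicate 2), while *CMT2* rose by 0.58 (adjusted p = 0.0149, and 0.181 with scaling by total reads). *CMT3* had 31, 32 and 35 reads in *ddcc* and 46, 54 and 52 in Col-0, and *DRM1* had at most 1 read in any leaf library. Among markers of cell types, the 3 leaf mesophyll genes *RBCS1A*, *CAB1* and *CA1* were all higher in *ddcc*, with a summed level of 8454 to 9147 RPM (reads per 1000000 nuclear reads) in *ddcc* and 1422 to 2161 in Col-0. Epidermis and guard cell markers summed to 135 to 151 RPM in *ddcc* and 110 to 132 in Col-0, and phloem markers to 177 to 217 in *ddcc* and 139 to 176 in Col-0, both without overlap. In these lists and that of dividing cells, 1 gene each passed at an adjusted p under 0.05, all higher in *ddcc*: *ATML1* (0.36, limma adjusted p = 0.0304), *SUC2* (0.46, 0.0142) and *HTR2* (1.12, 0.0225). Summed markers of the shoot meristem, dividing cells and flowers overlapped between the leaf groups, and *WUS* and *CLV3* were not listed. Nothing in the sources says whether replicates came from separate plants, so p-values measure the spread between these libraries.

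Across all 17005 genes tested in leaves, 861 (5.06%) passed the study's thresholds for differential expression (an absolute log2 fold change above 1 together with an adjusted p below 0.01), with 663 (3.90%) higher and 198 (1.16%) lower in *ddcc*. None of the 9 small RNA production genes that could be tested did so with limma or with limma-voom, and 5 of the 9 had an unadjusted limma p under 0.05, beside 36.1% of all genes. At an adjusted p under 0.05 with no threshold on the fold, *NRPD2* and *DCL3* fell, none rose, and 7 passed in neither direction. In samples of whole tissue, fewer cells of a type and less RNA per cell cannot be told apart. Over all genes that rule called 21.4%, with 13.0% higher and 8.32% lower. The median log2 fold change of the 9 genes was -0.39, with a middle range of -0.67 to 0.08, against -0.03 over all genes tested, with a middle range of -0.28 to 0.31. It was -0.17 without *ddcc* replicate 2 and -0.24 without Col-0 replicate 2, and -0.14 over the 7 genes for which no leaf library fell below 10 reads. In 4 of the 9 (*NRPD2*, *CLSY1*, *CLSY2* and *DCL3*) every *ddcc* library was below every Col-0 library in normalized reads, as in 19.4% of all genes, and in 1 (*NRPD1*) every *ddcc* library was above, as in 21.1% of all genes. The higher and lower counts over all genes depended on the scaling, with 440 higher and 787 lower when total reads were used and 599 higher and 300 lower when nuclear reads were used. Scaling by total reads moved the median over all genes to -0.35, and under it 1 gene of the 9 (*NRPD2*) passed the study's thresholds.

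**Figure D1:**
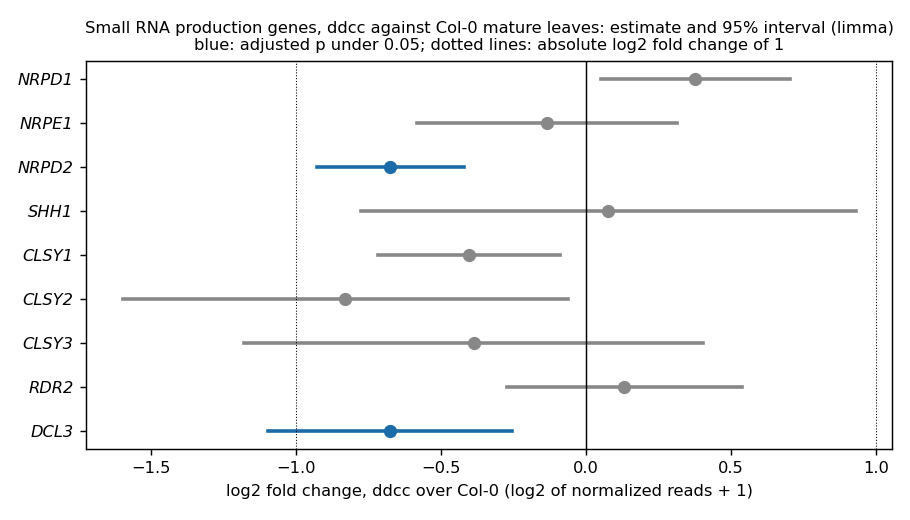
Log2 fold change (x axis, log2 of normalized reads plus 1) of the 9 tested genes (rows) in *ddcc* over Col-0 mature leaves, with 95% intervals from limma, 3 libraries per group. *NRPD2* (-0.67) and *DCL3* (-0.68), in blue, had adjusted p under 0.05, and no estimate reached an absolute value of 1.

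*NRPD2* (AT3G23780, chromosome 3, 8567572 to 8574209, minus strand, on TAIR10.1 like all positions given) encodes the second-largest subunit, which Pol IV and Pol V share. It had 135, 173 and 158 reads in *ddcc* leaves, against 236, 341 and 328 in Col-0 leaves. In normalized reads (reads divided by the deposited size factor of the library) this was 162, 169 and 175 in *ddcc*, and 247, 296 and 267 in Col-0. The highest *ddcc* library lay well below the lowest Col-0 library. The log2 fold change was -0.67 (SE 0.113, 95% interval -0.93 to -0.42), a level 1.60-fold lower in *ddcc* (limma, adjusted p = 0.00287). The call was kept in all 14 alternative settings, with adjusted p between 0.000332 and 0.0204. Of the 75-base windows in its exons, 3.80% occur more than once in the genome, and the study's methods removed reads with a mapping quality under 30, which can remove reads from such windows. This was 0.111% in *NRPE1* and 0 in the other genes described.

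*DCL3* (AT3G43920, chromosome 3, 15753387 to 15760859, plus strand) encodes the dicer that cuts Pol IV products. It had 36, 40 and 45 reads in *ddcc* leaves, against 80, 79 and 75 in Col-0 leaves. Normalized reads were 43.2, 39.2 and 49.8 in *ddcc*, and 83.9, 68.7 and 61.2 in Col-0, again with no overlap. The log2 fold change was -0.68 (SE 0.188, 95% interval -1.10 to -0.26), also 1.60-fold lower in *ddcc* (limma, adjusted p = 0.0304). This call was less firm than that of *NRPD2*: the adjusted p was 0.0757 without *ddcc* replicate 1, 0.101 without *ddcc* replicate 2, 0.0871 without Col-0 replicate 1 and 0.0824 without Col-0 replicate 2, with the log2 fold change at -0.70 to -0.55. *DCL3* overlaps the oppositely oriented AT3G43930 by 43 exonic bases. The sources used here do not state whether counting was strand-specific, so how reads there were assigned is not known.

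The promoter of *DCL3* is shown as that of a gene that passed the test in *ddcc*, which is mutated in the methyltransferases for CHG and CHH sites. Only the CG context, that of *MET1*, is marked below. The CHG and CHH counts have no background over promoters here. The sequence is the 250 bases before the annotated gene start (chr3:15753137-15753386, plus strand), read 5′ to 3′ on the strand of the gene from the TAIR10.1 assembly with RefSeq annotation, and capitals mark CG dinucleotides.
DCL3: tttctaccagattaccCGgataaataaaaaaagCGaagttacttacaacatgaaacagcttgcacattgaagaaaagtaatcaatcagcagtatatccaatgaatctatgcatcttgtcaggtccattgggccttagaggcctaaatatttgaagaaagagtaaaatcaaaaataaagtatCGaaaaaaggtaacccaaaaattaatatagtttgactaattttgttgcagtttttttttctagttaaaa
The *DCL3* window held 3 CG dinucleotides, a number below which 22.8% of 27443 promoters fell, with 14 cytosines in a CHG and 56 in a CHH context, counted on both strands. The median over all promoters was 5 CG dinucleotides, with a middle range of 3 to 7. The same window was read for 8 of the other genes, which had 1 (*NRPE1*) to 10 (*RDR2*) CG dinucleotides. The *RDR2* window, alone among the 9, overlaps another gene, AT4G11120. Of 5 motifs searched on both strands, the site II element TGGGCC was found in 2 of these 9 windows, those of *SHH1* and *DCL3*, and in 13.7% of all promoters. TATAAA was found in 4 of the 9 (*NRPD1*, *SHH1*, *CLSY1* and *RDR2*) and in 47.3% of all promoters, and the telo box AAACCCTA, the E2F site TTTCCCGC and the G-box CACGTG in none of the 9. The files hold no methylation calls, so the methylation state of these windows was not measured here.

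*NRPD1* (AT1G63020, chromosome 1, 23354685 to 23362589), the largest subunit of Pol IV, was on the other side. It had 105, 136 and 102 reads in *ddcc* leaves and 79, 114 and 128 in Col-0 leaves. Normalized reads were 126, 133 and 113 in *ddcc*, and 82.8, 99.1 and 104 in Col-0. The groups did not overlap on that scale. They did overlap slightly in RPM, where the lowest *ddcc* library (25.395 RPM) was just below the highest Col-0 library (25.426 RPM). The log2 fold change of 0.38 (SE 0.146, 95% interval 0.05 to 0.70) did not pass (limma, adjusted p = 0.0924), nor did it in any of the 14 alternatives. *NRPE1* (AT2G40030, chromosome 2, 16714460 to 16723718), the largest subunit of Pol V, had 47, 57 and 65 reads in *ddcc* and 50, 88 and 92 in Col-0, with a log2 fold change of -0.14 (95% interval -0.58 to 0.31, limma adjusted p = 0.662).

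Transcripts of the subunits could also be set against each other inside a library, where normalization cancels. Per kb of exon, *NRPD1* reached 0.599, 0.606 and 0.498 of the *NRPD2* level in *ddcc* leaves, against 0.258, 0.258 and 0.301 in Col-0 leaves. The geometric means were 0.565 in *ddcc* and 0.271 in Col-0, with no overlap. *NRPE1* reached 0.217, 0.206 and 0.257 of the *NRPD2* level in *ddcc*, against 0.132, 0.161 and 0.175 in Col-0, again with no overlap. These 2 ratios were chosen after the values had been seen and are given without a test. Both have *NRPD2*, already called lower in *ddcc*, as the denominator, so they are not separate from that call. A further ratio chosen in that way, *RDR2* to *NRPD1*, had geometric means of 0.501 in *ddcc* and 0.594 in Col-0. Its groups barely failed to overlap. The ratio of *NRPD1* to *NRPE1*, part of the design, was 2.76, 2.95 and 1.94 in *ddcc*, and 1.95, 1.60 and 1.72 in Col-0. The difference of 0.52 in mean log2 ratio had a two-sided exact permutation p = 0.2 (n = 3 each, adjusted p = 0.75 over 5 within-library comparisons), where 0.1 is the smallest p that 3 against 3 libraries allow.

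**Figure D2:**
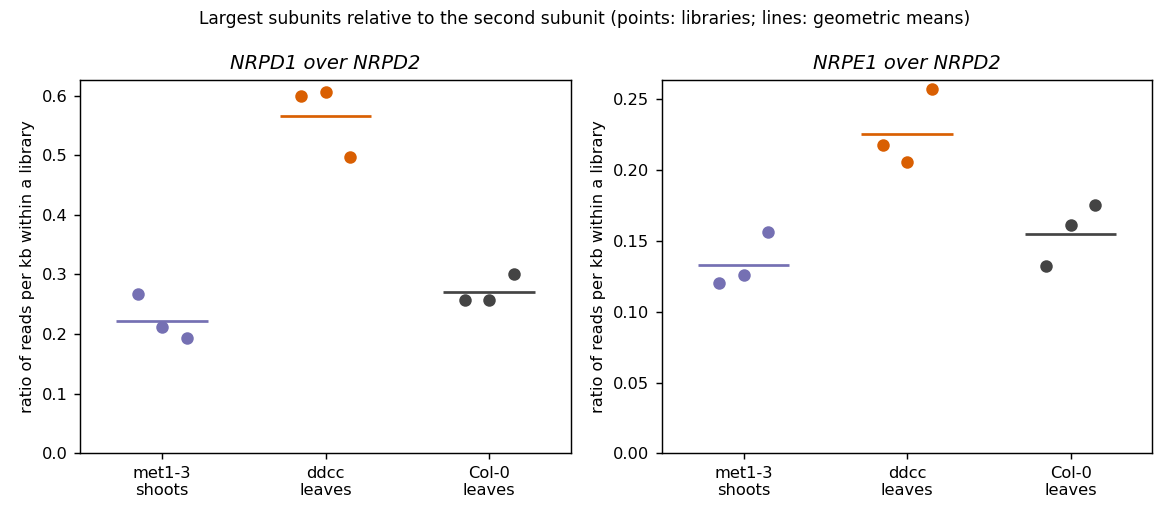
Level of *NRPD1* (left) and *NRPE1* (right) relative to *NRPD2*, as a ratio of reads per kb of exon within each library (y axis), for *met1-3* shoots, *ddcc* leaves and Col-0 leaves (points are libraries, lines are geometric means). In both panels the 3 *ddcc* points lie above all Col-0 points, and both panels share *NRPD2*, which was lower in *ddcc*, as the denominator.

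The 4 *CLSY* genes encode SNF2-type remodelers with different sets of Pol IV loci. *CLSY1* (AT3G42670, chromosome 3, 14755798 to 14760629) was by far the most abundant of them in leaves. It had 76, 91 and 69 reads in *ddcc* and 102, 138 and 138 in Col-0, or 91.1, 89.2 and 76.3 normalized reads in *ddcc* and 107, 120 and 113 in Col-0. The groups did not overlap, but the log2 fold change of -0.40 (SE 0.140, 95% interval -0.72 to -0.09) did not pass (limma, adjusted p = 0.0675). It did pass when libraries were scaled by total reads (-0.73, beside the median of -0.35 over all genes, limma adjusted p = 0.0037). It also passed with scaling by nuclear reads (-0.48, beside a median of -0.10, limma adjusted p = 0.0463). This call thus depends on the scaling, which also shifted the median over all genes.

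The other *CLSY* transcripts were scarce. *CLSY2* (AT5G20420, chromosome 5, 6898790 to 6904242), the closest relative of *CLSY1*, had 11, 11 and 8 reads in *ddcc* and 19, 33 and 17 in Col-0, again without overlap. Its log2 fold change of -0.83 was the lowest of the 9 genes but had a wide 95% interval, -1.60 to -0.06 (limma, adjusted p = 0.113). With scaling by total reads it was -1.14, beside the same median of -0.35 (limma, adjusted p = 0.0207). *CLSY3* (AT1G05490, chromosome 1, 1618504 to 1623489), known for its role in reproductive tissues, had 9, 8 and 14 reads in *ddcc* and 12, 22 and 16 in Col-0 (log2 fold change -0.39, 95% interval -1.18 to 0.41, limma adjusted p = 0.461), a value that ran from -0.62 to -0.17 when 1 library was left out. *CLSY4* (AT3G24340, chromosome 3, 8831935 to 8835829) had 6, 0 and 7 reads in *ddcc* and 0, 5 and 8 in Col-0 and failed the filter on low reads. A count of 0 allows up to 3 reads, which is 0.661 RPM in *ddcc* replicate 2 and 0.696 in Col-0 replicate 1. At these depths a difference in *CLSY4* was not detectable.

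Summed over the 4 genes, *CLSY* transcripts amounted to 24.8 ± 0.881 RPM in *ddcc* leaves and 35.5 ± 4.53 in Col-0 leaves (SD, n = 3 each). The composition of the family was similar in its order. *CLSY1* made up 76.6% ± 6.42 of *CLSY* reads per kb in *ddcc* and 75.4% ± 4.07 in Col-0, *CLSY2* made up 9.55% ± 1.31 in *ddcc* and 13.4% ± 3.67 in Col-0, and *CLSY3* 8.92% ± 3.25 in *ddcc* and 8.56% ± 1.11 in Col-0. *CLSY4* contributed 0% to 8.16% in *ddcc* libraries and 0% to 5.09% in Col-0 libraries. All 4 shares overlapped between the groups, with two-sided exact permutation p = 0.9 for *CLSY1*, 0.3 for *CLSY2*, 1 for *CLSY3* and 0.5 for *CLSY4* (n = 3 each, adjusted p from 0.75 to 1). A single read moves the smaller shares by much, and leaving out 1 library turned the sign of the difference for *CLSY1* and *CLSY3*.

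**Figure D3:**
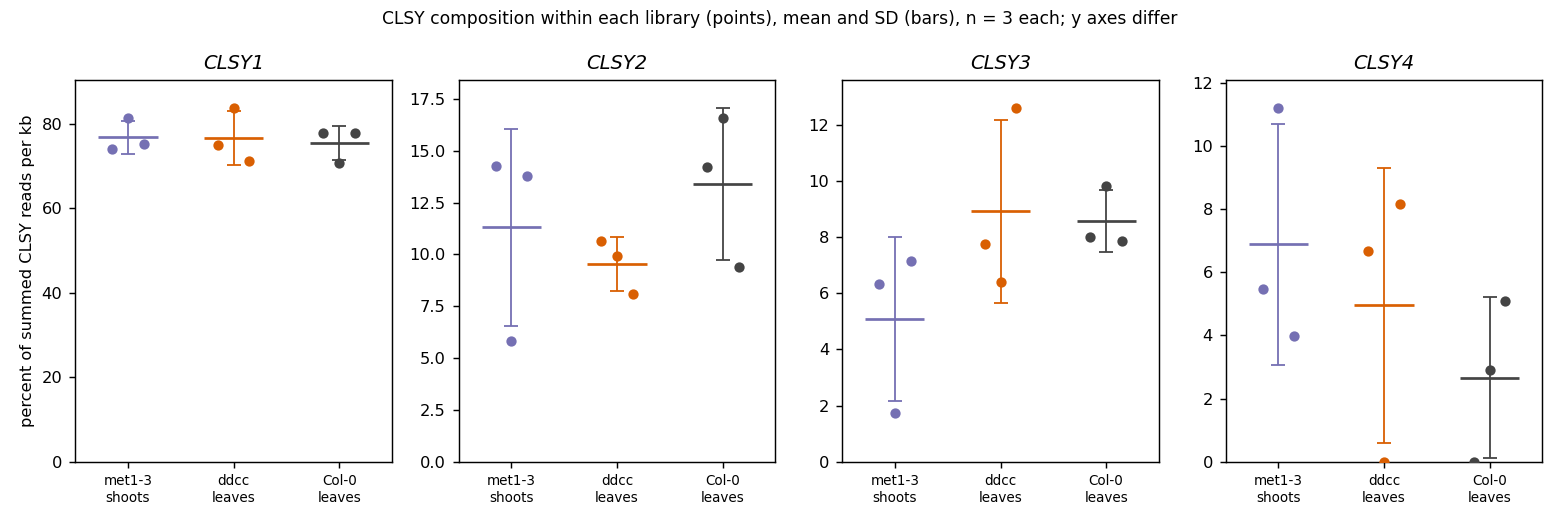
Share of each *CLSY* gene in the summed *CLSY* reads per kb of exon of a library (y axis, percent, scaled per panel), for *met1-3* shoots, *ddcc* leaves and Col-0 leaves (points are libraries, bars are mean and SD, n = 3 each). *CLSY1* makes up over 70% in every library, and the groups overlap in every panel for *ddcc* and Col-0.

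*RDR2* and *SHH1* showed no difference that passed. *RDR2* (AT4G11130, chromosome 4, 6780449 to 6784632), the polymerase that makes Pol IV transcripts double-stranded, had 33, 47 and 39 reads in *ddcc* and 37, 44 and 49 in Col-0. Its log2 fold change was 0.13, and the 95% interval of -0.27 to 0.54 bounds the change more closely than for the scarcer genes (limma, adjusted p = 0.632). *SHH1* (AT1G15215, chromosome 1, 5238044 to 5240051) had 18, 11 and 17 reads in *ddcc* and 18, 11 and 25 in Col-0, and its interval of -0.78 to 0.93 covered changes of either sign (log2 fold change 0.08, limma adjusted p = 0.905). *SHH1* shares 23 exonic bases with AT1G15220 on the opposite strand.

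In abundance the genes spanned a wide range. In RPM per kb of exon, *NRPD2* led in every group, with 8.98 in *ddcc* and 15.2 in Col-0 leaves, and was separated from the next gene in each. *NRPD1* followed in *ddcc*, at 5.08, without separation from *CLSY1* at 4.56. In Col-0 *CLSY1* was second, at 6.37, and separated from *NRPD1* at 4.14. *DCL3* had 1.93 in *ddcc* and 3.26 in Col-0, overlapping its neighbours *NRPE1* in *ddcc* and *SHH1* in Col-0. *SHH1*, *RDR2* and *NRPE1* lay between 2.04 and 3.10 in *ddcc* and between 2.39 and 3.14 in Col-0, and overlapped each other. *CLSY2*, *CLSY3* and *CLSY4* came last in both groups, with 0.570, 0.530 and 0.297 in *ddcc*, and 1.14, 0.732 and 0.237 in Col-0. Summed over all 10 genes the level was 126 ± 4.97 RPM in *ddcc* and 166 ± 16.4 in Col-0 (SD, n = 3 each). *NRPD2* alone, already called lower, had 37.2 RPM in *ddcc* and 62.9 in Col-0 and weighs most in this sum. The mean RPM of *NRPD1*, *RDR2* and *CLSY4* was higher in *ddcc*, so the sum does not describe every gene. Scaling by nuclear reads put the median log2 fold change over all genes tested at -0.10. The mesophyll, epidermis and phloem markers and the plastid share moved with the same groups, and their part in these differences was not tested.

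**Figure D4:**
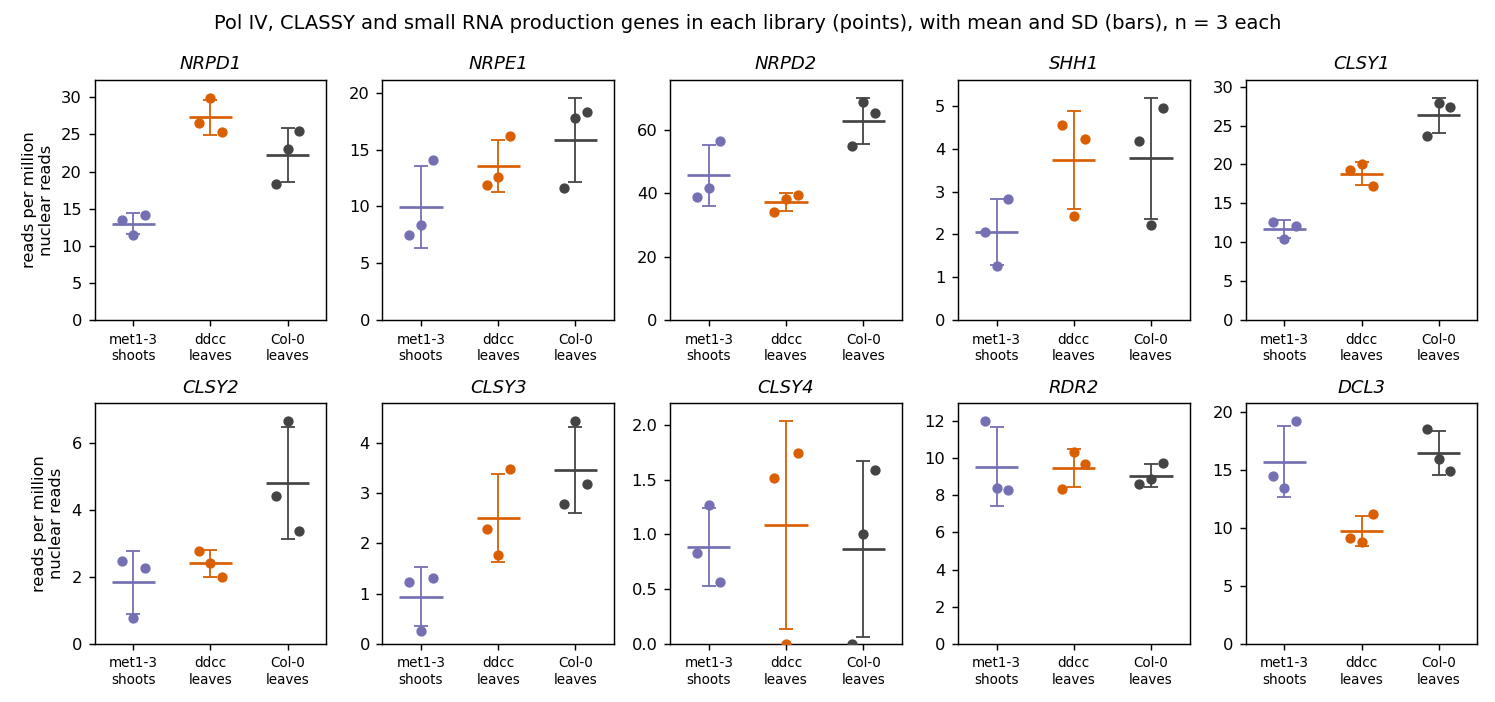
Levels in RPM (y axis, scaled per panel) of the 10 genes in *met1-3* young shoots, *ddcc* leaves and Col-0 leaves (points are libraries, bars are mean and SD, n = 3 each). *NRPD2*, *CLSY1*, *CLSY2* and *DCL3* lie lower in every *ddcc* than in every Col-0 library, and *NRPD1*, *CLSY1*, *CLSY2* and *CLSY3* lie lower in every *met1-3* than in every Col-0 library.

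*met1-3* young shoots differ from the leaves in genotype, age and labelled tissue at once, which cannot be told apart, and their files were normalized separately. They are therefore described without a test beside the Col-0 leaves that the *ddcc* comparison also uses, in RPM. None of the 10 genes was above every Col-0 leaf library, as 23.8% of 19732 genes were, and 4 were below every one, as 43.0% of genes were. The 4 were *NRPD1*, with 13.4, 11.4 and 14.1 in *met1-3* shoots and 18.3, 23.0 and 25.4 in Col-0 leaves, *CLSY1*, with 12.6, 10.4 and 12.1 in *met1-3* and 23.7, 27.8 and 27.4 in Col-0, and the scarce *CLSY2* and *CLSY3*. *CLSY2* averaged 1.83 ± 0.935 in *met1-3* and 4.81 ± 1.68 in Col-0, and *CLSY3* 0.938 ± 0.593 in *met1-3* and 3.47 ± 0.863 in Col-0 (SD, n = 3 each). The same 4 were found when scaled to the reads of all genes and with the deposited normalized reads. When *met1-3* replicate 3 was left out, 8 of the 10 were below every Col-0 library. With fewer libraries any gene separates more easily, and the share over all genes was not computed for that setting.

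The remaining genes overlapped between *met1-3* shoots and Col-0 leaves. *NRPD2* averaged 45.6 ± 9.55 in *met1-3* and 62.9 ± 7.26 in Col-0, *NRPE1* 9.98 ± 3.62 in *met1-3* and 15.9 ± 3.71 in Col-0, and *SHH1* 2.05 in *met1-3* and 3.79 in Col-0. *DCL3* averaged 15.7 in *met1-3* and 16.5 in Col-0, and *RDR2* 9.55 in *met1-3* and 9.07 in Col-0. *CLSY4* averaged 0.887 in *met1-3* and 0.866 in Col-0, near the level of 3 reads. Per kb the order in shoots was *NRPD2* at 11.0, then *DCL3* at 3.12, *CLSY1* at 2.83, *RDR2* at 2.57 and *NRPD1* at 2.42, of which only *NRPD2* was separated from its neighbour. *CLSY1* made up 76.7% ± 3.94 of *CLSY* reads per kb in *met1-3*, beside 75.4% ± 4.07 in Col-0. The ratio of *NRPD1* to *NRPD2* was 0.222 in *met1-3*, beside 0.271 in Col-0. Markers of dividing cells summed to 88.3 to 156 RPM in *met1-3* shoots and 7.43 to 9.53 in Col-0 leaves, and mesophyll markers to 14495 to 15544 in *met1-3* and 1422 to 2161 in Col-0. Epidermis and guard cell markers were also higher, at 189 to 229 in *met1-3* and 110 to 132 in Col-0. Phloem markers were lower, at 60.7 to 73.8 in *met1-3* and 139 to 176 in Col-0, as were shoot meristem markers, at 6.86 to 9.79 in *met1-3* and 16.0 to 30.8 in Col-0. Their part in these values was not tested.

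*CLSY1* and *DCL3* stood out for their genomic neighbourhood. Both lie on chromosome 3, *CLSY1* from 14755798 and *DCL3* from 15753387. Whether their counts below reflect a single region rich in transposable elements was not tested. Only transposable element genes listed for the 9 libraries were counted, so annotated ones that are not listed are missing here. Within 250 kb of *CLSY1* lie 39 listed ones, more than around 99.6% of the 22684 listed nuclear genes that are not transposable element genes themselves. Within that distance of *DCL3* lie 30, more than around 98.9%. The median over the 22684 genes was 1, and the other 8 genes described had 0 to 7. The nearest listed transposable element gene to *CLSY1*, AT3G42658 at 5.50 kb, had 38, 21 and 19 reads in *ddcc* leaves and none in the 3 Col-0 libraries. The one nearest to *DCL3*, AT3G43955 at 7.96 kb, had 91, 153 and 143 reads in *ddcc* and 144, 125 and 138 in Col-0. Other genes had a nearest listed one with reads in every *ddcc* library and at most 1 in any Col-0 library. These were *NRPD1* (25, 22 and 12 reads in *ddcc*, at 232 kb), *NRPE1* (47, 55 and 28, at 614 kb), *NRPD2* (50, 35 and 23, at 24.6 kb) and *CLSY4* (13, 41 and 10, at 176 kb). This pattern was thus not particular to *CLSY1*. Every gene listed for the leaves had at least 1 read there, so a transposable element gene silent in Col-0 is listed only through a mutant. The pattern is partly fixed by this listing, and its share over all genes was not computed.

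A wider list of 48 genes that produce or use small RNAs, chosen with earlier results of these data known, gave 41 that could be tested in leaves. None passed the study's thresholds with limma or limma-voom, and 8 of the 41 had an unadjusted limma p under 0.05, again beside 36.1% of all genes. At an adjusted p under 0.05, 2 rose and 2 fell in *ddcc* and 37 passed in neither direction, beside 21.4% of all genes called by that rule, and the median log2 fold change was -0.11. Of the other dicers, *DCL1*, which processes microRNAs, had 524, 678 and 507 reads in *ddcc* and 811, 944 and 1020 in Col-0. It fell by 0.44 on the log2 scale (limma, adjusted p = 0.00917), a call kept in all 14 alternatives. *DCL2* (-0.23) and *DCL4* (0.00), which act on viral and trans-acting small RNA precursors, did not pass. *DCL3* took 4.60% ± 0.612 of the reads per kb of the 4 dicers in *ddcc* and 5.98% ± 1.20 in Col-0 (SD, n = 3 each), a share chosen after the values had been seen, whose groups barely failed to overlap (highest *ddcc* library 5.04%, lowest Col-0 library 5.05%).

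Among polymerase subunits, *NRPB2*, the Pol II counterpart of *NRPD2*, fell by 0.34 on the log2 scale in *ddcc* (375, 456 and 455 reads in *ddcc*, against 538, 681 and 758 in Col-0, limma adjusted p = 0.0285). The call was lost in 4 of the 6 fits without 1 library, with adjusted p of 0.0789 to 0.102. It was the only one of 15 tested subunits to pass, and *NRPB1*, the largest subunit of Pol II, had a log2 fold change of 0.17 (adjusted p = 0.293). *AGO10*, an argonaute of meristems and leaf polarity that binds microRNAs, had 132, 172 and 139 reads in *ddcc* and 89, 121 and 138 in Col-0 and rose by 0.63 (limma, adjusted p = 0.00814). That call was lost only with scaling by total reads (0.30, adjusted p = 0.119). *AGO4*, the main partner of Pol IV small RNAs, had a log2 fold change of -0.16 (adjusted p = 0.403). *RDM1*, a protein of the complex that supports Pol V, had 30, 28 and 34 reads in *ddcc* and 24, 16 and 17 in Col-0 and rose by 0.94 (limma, adjusted p = 0.0482), but the call was lost in 9 of 14 alternatives, with adjusted p up to 0.149. Paralogs of the described genes that did not pass were *SHH2* (0.42, adjusted p = 0.181), *DRD1*, the Pol V remodeler related to the CLSY proteins (0.61, adjusted p = 0.122), and *RDR6* (-0.14, adjusted p = 0.43).

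**Figure D5:**
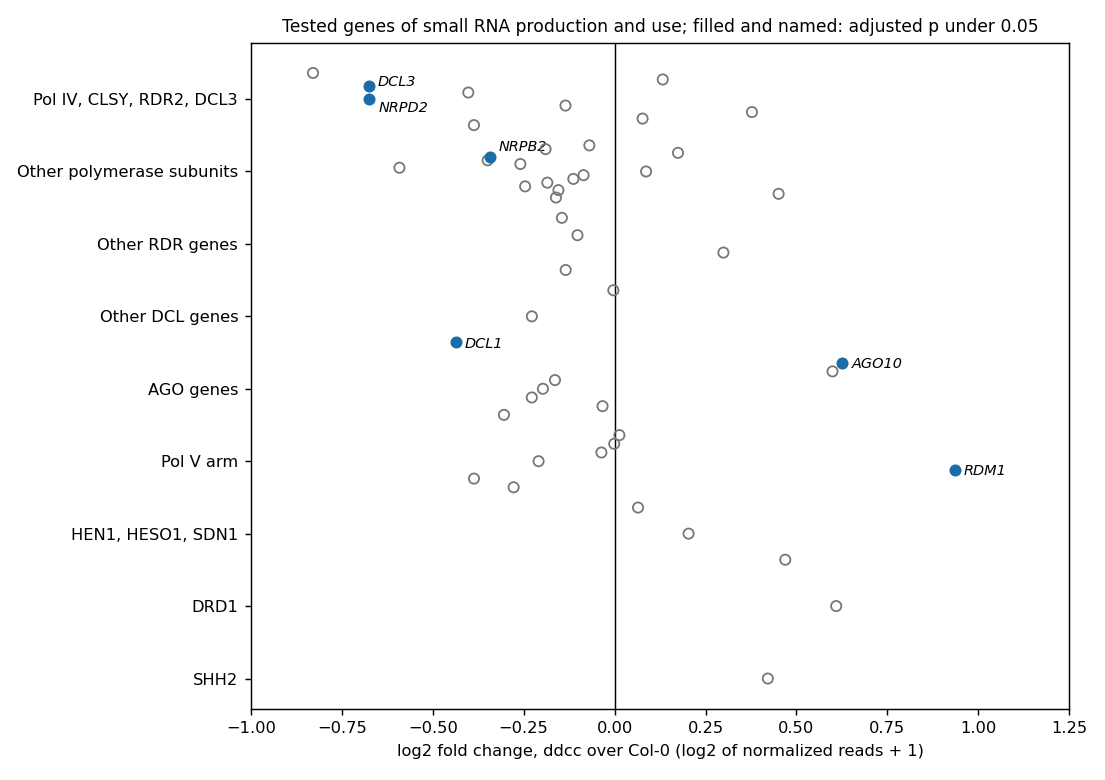
Log2 fold change (x axis, log2 of normalized reads plus 1) in *ddcc* over Col-0 leaves for the 9 described genes and 41 other tested genes of small RNA production and use (one point per gene, rows are gene groups). The 6 filled, named genes had adjusted p under 0.05, and all of them lie between -0.68 and 0.94.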

How the data were processed

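RNA-seq of *met1-3* young shoots and of *ddcc* and Col-0 mature leaves was used (3 libraries each), from total RNA and TruSeq libraries. The submitters' processing notes name Trimmomatic, HISAT2, DESeq2 and TAIR10, and give no versions. The paper's methods name HTSeq-count for the reads per gene and give no strand setting. The files deposited by the authors hold log2(reads divided by a size factor, plus 1) per gene, with the shoots normalized apart from the leaves. Whole reads were recovered from them (100% of values whole at a tolerance of 1e-06). The deposited unit is log2, and the count test of the study was not run, although the recovered reads would have allowed it. Instead limma 3.58.1 in R 4.3.3 (intensity trend) was run on the log2 values of *ddcc* and Col-0, with Benjamini-Hochberg adjustment over all 17005 genes that reached the equivalent of 10 reads in at least 3 libraries and 15 reads in total. Fold changes are on the log2(normalized reads + 1) scale, which understates changes of low genes. Per-kb levels used exon lengths of the RefSeq annotation of TAIR10.1. Intervals and the floor of 3 reads cover counting or replicate error only. All 10 genes are named, and other pathway genes where they passed or are paralogs. The 10 genes and the lists were chosen with earlier results of these data known. The fit was tested on simulated data. Alternatives were other scalings, filters, pseudocount (0.1), limma-voom, a replicate block and leaving out each library. The promoter window of 1 of the 10 genes is not reported here.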

Additional observations from a re-analysis of the deposited data

How the results depend on the processing

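Scaling by total reads called 7481 genes at an adjusted p under 0.05 (main 3634, which is also the count with no fold threshold in place of the study's 861) and 4 of the 9 tested genes of the pathway (main 2), and 1 of them at the study's thresholds (main 0, or 2 with no fold threshold). It shifted the median over all genes by a like amount, to -0.35, and with it turned the sign of *SHH1* (-0.23) and *RDR2* (-0.19), which had not passed. Leaving out 1 library gave 554 to 958 genes at the study's thresholds, 2143 to 3741 at an adjusted p under 0.05 and 1 to 2 of the 9 genes. *NRPE1* then ran from -0.31 to -0.04 and *RDR2* from 0.08 to 0.19, and *SHH1* ran from -0.24 to 0.36, and was -0.11 without *ddcc* replicate 1, -0.02 without *ddcc* replicate 3 and -0.24 without Col-0 replicate 2. The difference in the *CLSY1* share ran from -2.34 to 3.91 percentage points and was -2.34 without *ddcc* replicate 2 and -1.15 without Col-0 replicate 2. For *CLSY3* it ran from -1.48 (without *ddcc* replicate 3) to 1.61, for *CLSY2* from -5.85 to -2.25 and for *CLSY4* from 0.68 to 4.76. The log2 ratio of *NRPD1* to *NRPE1* differed by 0.40 to 0.70. Between 4 and 8 of the 10 genes were below every Col-0 library in *met1-3* shoots, with no share over all genes computed beside these counts. The cause of these shifts was not tested. With the replicate number as a block, 719 genes were higher and 298 lower in *ddcc* (1017 in all, against 861), 0 of the 9 genes passed the study's thresholds and 2 an adjusted p under 0.05. Same-numbered *ddcc* and Col-0 libraries correlated at 0.28, 0.02 and 0.07 in their deviations, and 2 of 3 *ddcc* libraries correlated best with another number, so the numbers were not taken as pairs. *NRPD2* kept its call in all alternatives, and *NRPD1*, *NRPE1* and *CLSY3* never passed. Few reads limit *SHH1*, *CLSY2*, *CLSY3* and *CLSY4*, which had at most 33 in any library.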
